A study of Selaginella kraussiana with 4 samples.

Results

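The loci described here were those of the creeping spikemoss Selaginella kraussiana, a lycophyte, that had a higher RNA level in the stem than in the leaf, the rhizophore and the seedling. They were chosen by measured values, namely FPKM in the same 4 libraries, which is the number of fragments divided by transcript length in kilobases and by the library size in units of 1000000 fragments, so their height in the stem is a description and was not tested. Loci of the 4 tables were merged wherever they shared 1 bp or more of a contig, and the values of each library were added up within the merged locus. A merged locus of at least 300 bp was kept if log2(FPKM + 1) in the stem exceeded the highest such value of the other 3 tissues by at least 2, which is called the preference below. The number of loci that met the rule was 377 of 26055 merged loci of at least 300 bp, or 1.45%, and they lay on 375 contigs. The number of merged loci of any length was 31210.

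The study sequenced total RNA from 4 tissues of untreated plants grown at 26 °C with 16 h of light and 8 h of dark. Each tissue, stem, leaf, rhizophore and seedling by the deposited labels, gave 1 library. The methods of the study name the tissues stem, microphyll, rhizophore tip and shoot tip, but give read numbers under stem, leaf, rhizophore and "seeding". By elimination the seedling library would be the one from the shoot tip, although neither the labels nor the study say so outright. The label names are used here, and whether seedling means a shoot tip or a whole seedling, which would include stem, is not settled. No tissue was replicated, no strain or plant number is given, and a difference between tissues cannot be told apart from a difference between the plants or preparations behind each library. No p-value is given for this reason. In bulk tissue, fewer cells of a type and less RNA per cell cannot be told apart either.

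The stem of Selaginella carries vascular strands, each with water-conducting xylem and sugar-conducting phloem, set in an air-filled space that is bridged by elongated endodermal cells. Around it lie a cortex and an outer zone of thick-walled cells that stiffen the axis. The rhizophore, a leafless axis that grows from the branch points and bears the roots, and the microphyll, a small leaf with an unbranched vein, also contain vascular tissue. The tables give no gene names, strands or sequences, so the loci are identified by contig and position, and neither the tissue labels nor the function of a locus could be checked against marker genes. Positions are on the draft contigs of the authors, counted from 1.

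The libraries held from 28860 (stem) to 30999 (leaf) loci, and the median locus rested on 151 (leaf) to 187 (seedling) fragments. These fragment numbers were derived from the width of the deposited interval around each FPKM, taken as 2 Poisson standard deviations on either side. In units of 1000000 fragments, the implied library totals were 46.8 in the stem, 53.3 in the leaf, 49.8 in the rhizophore and 57.9 in the seedling. Where the interval of a locus is wider than counting error, its fragment number is an understatement. These intervals say nothing of how plants differ from each other.

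The 377 loci spanned a wide range of levels in the stem, with 3.03 FPKM at the lowest, 59.4 FPKM at the median and 55085 FPKM at the highest. Their median was 2.26 FPKM in the leaf, 3.21 FPKM in the rhizophore and 2.09 FPKM in the seedling. The other 25678 merged loci of at least 300 bp had a median of 7.56 FPKM in the stem, 7.26 in the leaf, 8.91 in the rhizophore and 8.80 in the seedling. The stem-preferential loci held 17.0% of the FPKM summed over merged loci of at least 300 bp in the stem, against 1.55% in the leaf, 0.691% in the rhizophore and 0.778% in the seedling. Most preferences lay close to the limit. The median preference was 2.62, the central 50% of loci lay between 2.30 and 3.47, and 132 loci reached 3, 61 reached 4 and 36 reached 5. In 365 of the 377 loci the lower bound of the stem lay above the upper bound of each other library. That was so for 10.9% of all merged loci of at least 300 bp, a share given only for scale, since the rule used the same values.

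**Figure D1:**
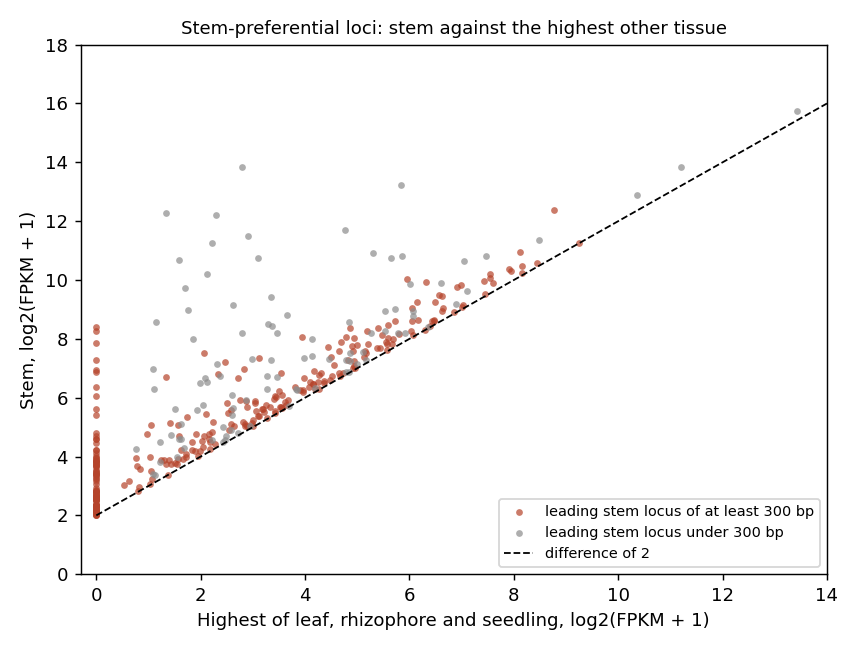
Each point is 1 of the 377 stem-preferential loci, with log2(FPKM + 1) in the stem on the vertical axis and the highest such value of leaf, rhizophore and seedling on the horizontal axis. Red points have a leading stem locus of at least 300 bp (279 loci) and grey points a shorter one (98 loci). The dashed line is a difference of 2, the limit of the rule. Most points lie close to this line, and the points at 0 on the horizontal axis are the 91 loci listed in the stem table alone.

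The rule asked for a merged interval of at least 300 bp, but it did not ask this of the locus assembled in the stem. In 98 of the 377 loci (26.0%) the leading stem locus, the one with the highest FPKM inside the merged interval, was shorter than 300 bp. It was shorter than 200 bp in 75 and shorter than 150 bp in 51 of them. Among the other merged loci of at least 300 bp with a locus in the stem, 4.08% had a leading stem locus shorter than 300 bp. These 98 loci held 75.3% of the summed stem FPKM of the 377. They also made up 17 of the 20 highest stem levels and 14 of the 20 largest preferences. Their median stem level was 161 FPKM, and that of the 279 loci with a longer stem locus was 40.9 FPKM.

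The fragments behind these short stem loci were few. The median was 33.8 fragments in the 98 loci and 684 in the 279, and 45 of the 98 but 18 of the 279 rested on fewer than 30. In 69 of the 98, and in 20 of the 279, the fragment number derived from the intervals was lower in the stem than in another tissue. This compared numbers within the merged interval for the size of each library, and a wide stem interval can also give it. FPKM divides by a transcript length that is corrected for the length of the fragments. The length by which the stem FPKM was divided can be estimated from the FPKM, the fragment number and the library total. This estimate is too small where the interval is wider than counting error, in long loci as well. It had a median of 3.98 bp in the 98 loci, against 237 bp in the 279, and it was below 1 bp in 30 of the 98. A high stem FPKM in these 98 loci thus stood beside a small divisor and few fragments, both as derived from the intervals.

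**Figure D2:**
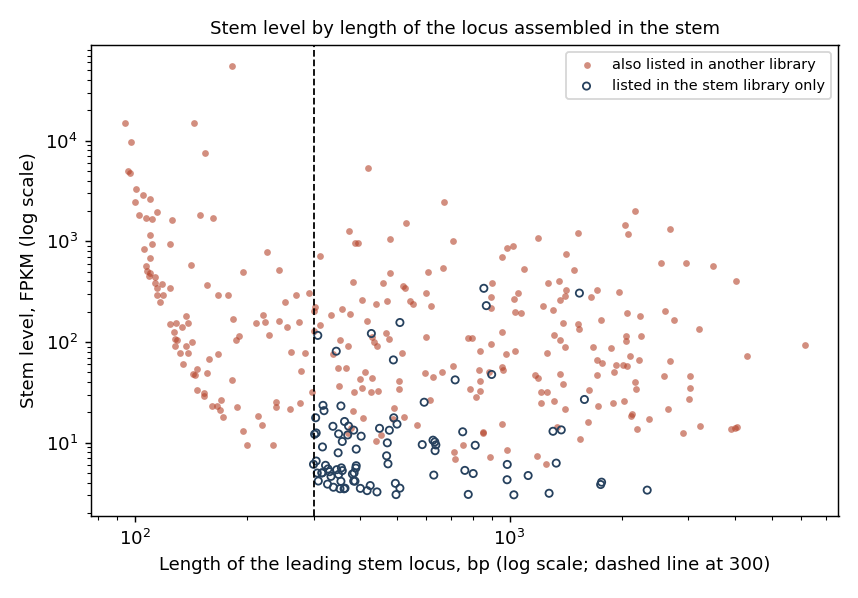
Each point is 1 of the 377 loci, with the length of its leading stem locus in bp on the horizontal axis and its summed stem level in FPKM on the vertical axis, both on log scales. Filled points are also listed in another library, open circles (91 loci) are listed in the stem library alone, and the dashed line is at 300 bp. Most of the highest levels, up to 55085 FPKM, lie to the left of this line.

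The highest levels and the largest preferences show this in single loci. On contig 067981, from 1606 to 2340, the level was 55085 FPKM in the stem (bounds 23161 to 87009), against 11044 in the leaf, 0 in the rhizophore and 0.974 in the seedling. The stem value rested on 11.9 fragments over a locus of 182 bp and the leaf value on 19.1 fragments over 184 bp, whereas the seedling locus was 735 bp long. Its fragments were the most of the 3 and its FPKM was the lowest. On contig 055533, from 29 to 386, the level was 14837 FPKM in the stem, against 5.92 in the leaf, 0 in the rhizophore and 1.93 in the seedling, the largest preference of all at 11.07. Its stem locus of 94 bp held 13.0 fragments, and the leaf locus of 343 bp held 48.7. The locus on contig 048034 from 218 to 531 had the same 14837 FPKM and 13.0 fragments in the stem, against 4.12 FPKM in the leaf, 0 in the rhizophore and 2349 in the seedling. Its stem and seedling loci were 144 and 150 bp long and its leaf locus 309 bp.

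The same held further down the order. Contig 036841 (3 to 366, preference 10.96) had 4999 FPKM in the stem from 9.59 fragments, against 1.52 in the leaf from 13.3 fragments, and was not listed in the rhizophore and the seedling. Contig 105412 (1862 to 2191, preference 9.91) had 4742 FPKM in the stem from 13.0 fragments, against 3.93 in the leaf, and was likewise listed in neither of the others. Contig 099948 (5 to 626, preference 9.11) had 1652 FPKM in the stem from 45.7 fragments, against 2.00 in the leaf from 45.8 and 0.705 in the seedling. In these 3 loci the leaf held as many fragments as the stem or more, over a longer interval.

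Where the stem listed a short and a long locus inside the same merged interval, their values could be set side by side. On contig 104595 (2918 to 4083) the 1003 bp stem locus had 8.96 FPKM and the 100 bp stem locus beside it 2457 FPKM, against 3.68 in the leaf, 2.07 in the rhizophore and 2.05 in the seedling. Nearly all of the merged level thus came from 100 bp. On contig 055122 (57 to 776) the 498 bp stem locus had 4.49 FPKM, near the 6.52 of the leaf, 5.42 of the rhizophore and 4.56 of the seedling. A 105 bp locus within it had 2850 FPKM and gave the merged locus its preference of 8.57. The stem-preferential call of this interval therefore rested on 105 bp. Among loci listed in all 4 libraries, these and 3 further loci were named for a large ratio of the stem lower bound to the highest upper bound elsewhere. The leading stem loci of the 3 were 98 to 110 bp long. They lay on contigs 089831 (9712 FPKM in the stem, against 2.26 in the leaf, 56.3 in the rhizophore and 22.3 in the seedling), 086094 (1717, against 2.25, 7.59 and 5.88) and 068828 (1167, against 1.13, 3.38 and 0.869).

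The 279 loci with a leading stem locus of at least 300 bp were 1.35% of the 20638 merged loci with such a stem locus. Their stem level ran from 3.03 to 5324 FPKM, and 216 of them reached 10 FPKM, 92 reached 100 FPKM and 12 reached 1000 FPKM. Of these loci, 188 were also listed in another library. There, the stem level was 6.22-fold the next-highest level at the median, with the central 50% between 5.08-fold and 8.18-fold. The largest was 67.5-fold, and 31 of the 188 reached 10-fold. By contrast 54 of the 98 loci with a short stem locus reached 10-fold, and 34 of them 20-fold.

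A closer comparison is possible where every library assembled nearly the same interval. This was taken as at most 1 locus per library, with each locus overlapping that of the stem by at least 80% of the length of both, a limit chosen after the data were seen. It was met by 148 of the 279 loci, 1.39% of the 10660 merged loci that met it with a stem locus of at least 300 bp. Of the 148, 83 were listed in the stem alone and met the condition by having nothing to compare, 65 were listed elsewhere, and 46 were listed in all 4 libraries. In the 46, the median level was 120 FPKM in the stem, against 14.9 in the leaf, 16.5 in the rhizophore and 10.1 in the seedling. The stem was 4.08-fold to 27.3-fold the next-highest tissue, with a median of 5.21-fold. Only 6 of the 46 reached a preference of 3 and 1 reached 4, so the very large preferences were not found among loci of like boundaries in all 4 tissues. In 5 of the 46 the fragment number derived from the interval was lower in the stem, for the size of its library, than in another tissue. On contig 047757 the stem had 317 FPKM over 1956 bp from 2155 fragments, against 77.6 FPKM over 1889 bp from 6404 fragments in the rhizophore. Over intervals of like length a higher FPKM needs more fragments for the size of the library. Such stem numbers are therefore understatements.

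The following loci of like boundaries, those with the highest stem levels apart from 1 on contig 059646 described further on, were chosen after their values were seen. Contig 033342 (1 to 530) had 1526 FPKM in the stem (bounds 1506 to 1547), against 348 in the leaf, 134 in the rhizophore and 52.8 in the seedling. Contig 045364 (26 to 2104) had 1440 FPKM in the stem (1431 to 1449), against 210 in the leaf, 285 in the rhizophore and 253 in the seedling. The stem is thus high in both, but the other tissues are spread widely in the first, where the leaf stands above the rest, and lie close together in the second. Contig 046054 (526 to 1517) had 694 FPKM in the stem, against 32.4 in the leaf, 98.1 in the rhizophore and 68.1 in the seedling. Contig 086574 (1 to 3143) had 604 FPKM in the stem, against 56.0 in the leaf, 89.0 in the rhizophore and 63.9 in the seedling. Contig 062164 (1 to 470) had 969 FPKM in the stem, against 78.5 in the rhizophore, and was not listed in the leaf and the seedling. In each of these 5 loci the intervals of the stem and of every other listed tissue lie apart.

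The largest preference among loci of like boundaries in all 4 libraries belonged to contig 099105 (1 to 836). It had 110 FPKM in the stem (104 to 116), against 0.828 in the leaf, 4.03 in the rhizophore and 1.17 in the seedling, or 27.3-fold over the rhizophore. Its stem locus was 777 bp long and rested on 1300 fragments, against 26.9 in the leaf, 108 in the rhizophore and 42.4 in the seedling. Here FPKM and fragments thus put the tissues in the same order. Contig 009774 (1 to 541) had 258 FPKM in the stem, against 13.4 in the leaf, 29.5 in the rhizophore and 2.38 in the seedling. Contig 000856 (4 to 621) had 305 in the stem, against 18.6 in the leaf, 35.4 in the rhizophore and 8.24 in the seedling. Contig 103886 (2860 to 4057) had 47.3 in the stem, against 2.06 in the leaf, 4.95 in the rhizophore and 1.06 in the seedling. These 4 loci share an order with the stem highest, then the rhizophore, and the leaf or the seedling lowest. Contig 057500 (2 to 431) differed from them, with 113 FPKM in the stem, against 2.72 in the leaf, 3.86 in the rhizophore and 10.6 in the seedling.

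**Figure D3:**
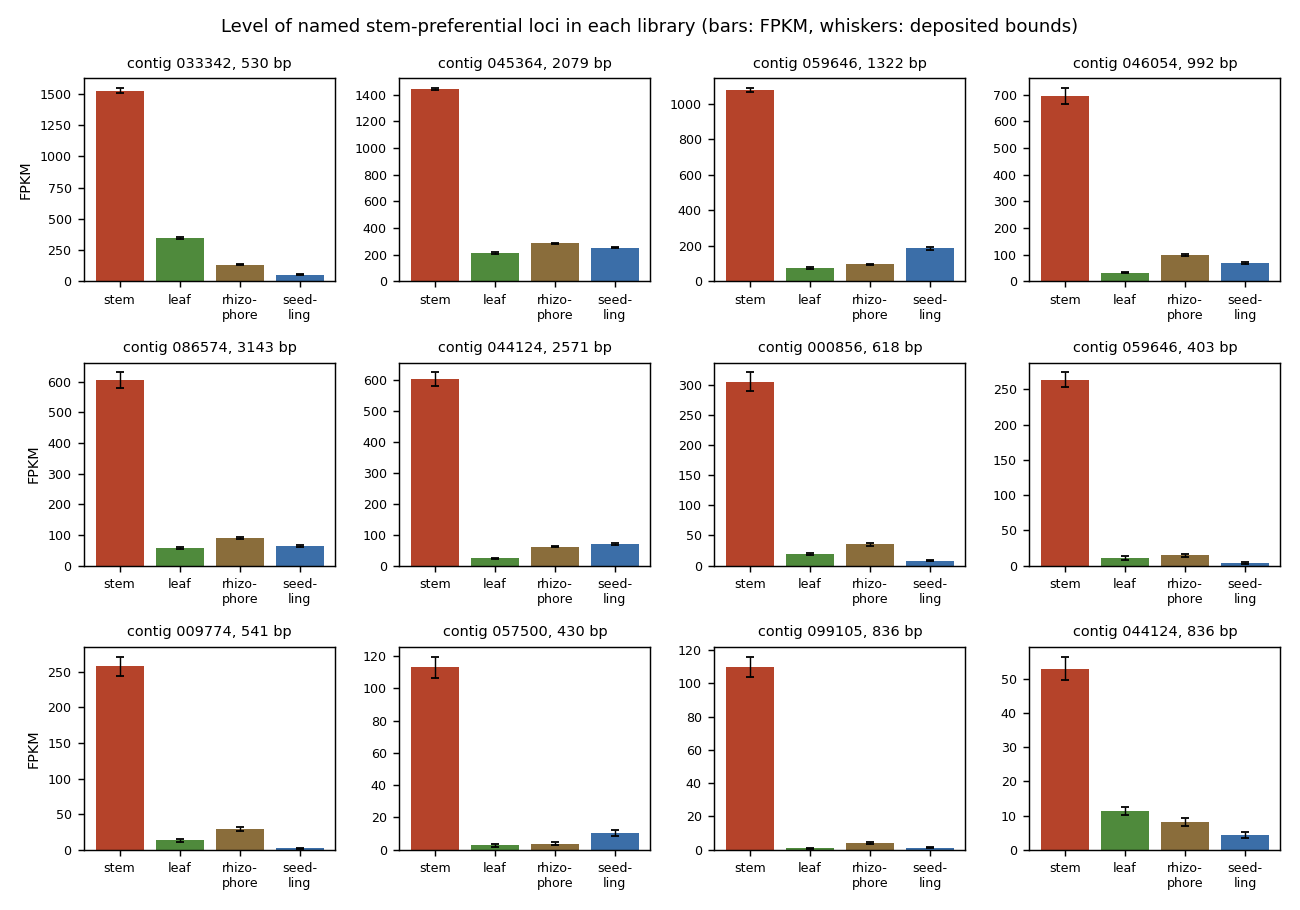
Bars show the level of 12 stem-preferential loci listed in all 4 libraries, in FPKM, in the stem, leaf, rhizophore and seedling libraries from left to right, each panel with its own axis from 0. Whiskers are the deposited lower and upper bounds and cover error within a library, and titles give the contig and the merged length. The order of the other tissues differs from panel to panel: the leaf is next highest on contig 033342 and the seedling on contig 057500.

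In loci assembled with unlike boundaries, the FPKM values of the libraries belong to different intervals. The longest merged locus, on contig 042939 from 1 to 15997, had 1992 FPKM in the stem, against 156 in the leaf, 275 in the rhizophore and 88.6 in the seedling. The stem table lists 1 locus there, of 2159 bp, whereas each other table lists 2 loci, of 5191 bp to 15997 bp. On contig 094647 (2 to 9049) the stem locus of 2060 bp had 193 FPKM, against 24.0 in the leaf, 22.3 in the rhizophore and 22.1 in the seedling, whose loci were 8017 bp to 9003 bp long. The upper bound of 1 of the rhizophore loci was 30935 FPKM, so the intervals overlap. Contig 050992 (60 to 9458) had 491 FPKM in the stem, of which 435 came from a locus of 195 bp, against 18.9 in the leaf, 62.4 in the rhizophore and 66.4 in the seedling. Its 1285 bp stem locus had 53.4 FPKM, against 53.6 for the 1296 bp rhizophore locus at the same place. That stretch was level between stem and rhizophore, and the preference of the merged locus came from the 195 bp beside it.

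Other loci with unlike boundaries had many fragments in the stem. Contig 043207 (253 to 3140) had 5324 FPKM in the stem from 2812 fragments over 418 bp, against 189 in the leaf, 187 in the rhizophore and 435 in the seedling. The fragment numbers derived from the intervals were higher in the leaf and the rhizophore, 2998 and 3581, and lower in the seedling, 1963. Such numbers are understatements where an interval is wider than counting error, so their order need not be that of the reads. Most of the seedling level (422 FPKM) came from a locus of 315 bp at the same place. Contig 071778 (1 to 3685) had 2475 FPKM in the stem, against 39.4 in the leaf, 202 in the rhizophore and 609 in the seedling. Nearly all of the stem level came from a locus of 667 bp with 45162 fragments, and the seedling level was the highest outside the stem among loci with a stem locus of at least 300 bp. The leaf listed a single locus of 3685 bp there, so that its FPKM belongs to a longer interval. Whether this bears on the low leaf value was not tested.

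The rule did not ask in how many of the other tissues a locus was assembled. Of the 377 loci, 91 (24.1%) were listed in the stem alone, 34 in 1 further library, 50 in 2 and 202 (53.6%) in every library. Of the other 25678 merged loci, 73.7% were listed in each of leaf, rhizophore and seedling and 1.27% in none of them. A locus at 0 in those 3 tissues needs only 3 FPKM in the stem to pass, so a high share follows from the rule. The loci preferential to the other tissues by the same rule gave 180 of 442 (40.7%) in the leaf, 219 of 508 (43.1%) in the rhizophore and 74 of 233 (31.8%) in the seedling as listed in that tissue alone. The stem thus had the lowest of the 4 shares, a difference for which 1 library per tissue allows no test. A leading locus shorter than 300 bp was found in 26.0% of the stem set, 19.9% of the leaf set, 16.9% of the rhizophore set and 25.3% of the seedling set.

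The 91 loci listed in the stem alone were short and low. Their median length was 417 bp, against 1341 bp for the 202 listed everywhere, and their median level was 6.26 FPKM, against 153 FPKM. Of the 91, 35 reached 10 FPKM and 30 were below 5 FPKM, and the median fragment number was 62.6. A locus that is not listed may still have had reads, too few for a transcript to be assembled. Loci near the limit of listing had 11 fragments in each library.

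The loci of the stem alone with the most fragments stood well above this limit. Contig 103824 (69 to 935) had 230 FPKM in the stem (bounds 224 to 235) from 6429 fragments. Contig 098882 (823 to 2358) had 306 FPKM (294 to 318) from 2702 fragments, and contig 051035 (1 to 854) had 341 FPKM (326 to 357) from 1913. All 3 were at 0 in the leaf, the rhizophore and the seedling, and their preferences of 7.85, 8.26 and 8.42 are not folds, since they depend on the pseudocount of 1. Contig 071292 (1 to 896) had 47.6 FPKM from 1053 fragments and contig 061469 (89 to 1672) had 26.9 FPKM from 882. These 5 loci have narrow intervals and stem loci of 854 bp to 1584 bp.

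Among the 286 loci listed outside the stem, the rhizophore was the next-highest tissue in 117 (40.9%), the leaf in 97 (33.9%) and the seedling in 72 (25.2%). The shares over the other merged loci that were listed outside the stem were 36.6% for the rhizophore, 37.1% for the leaf and 26.3% for the seedling. The highest other tissue was therefore distributed much as it was in loci at large. With FPKM rescaled to TPM, so that every library has the same sum, the rule gave another set of 486 loci, of which 291 were among the 377, and there the next-highest tissue was the leaf in 200, the rhizophore in 151 and the seedling in 101. The rhizophore stayed ahead of the leaf in the sets found with median-of-ratios factors (120 against 108), with upper-quartile scaling (115 against 97) and with TPM over merged loci of at least 300 bp (107 against 85). Among the 202 loci listed in all 4 libraries, the most frequent order was rhizophore over seedling over leaf (20.8%), closely followed by leaf over rhizophore over seedling (20.3%) and rhizophore over leaf over seedling (19.8%). The shares of these orders among the other loci listed in all 4 libraries were 25.5%, 15.3% and 11.4%.

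**Figure D4:**
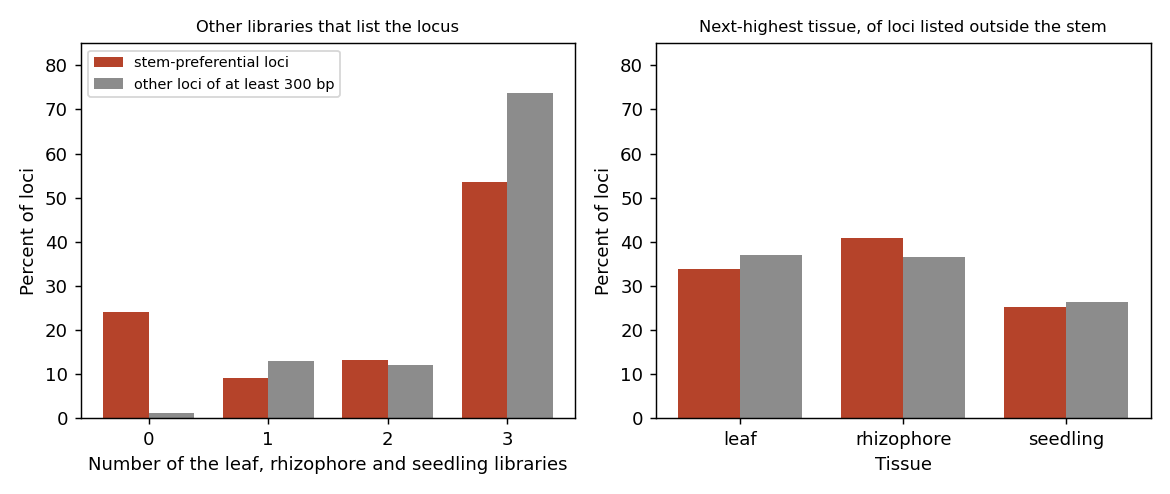
Bars give the percent of the 377 stem-preferential loci (red) and of the other 25678 merged loci of at least 300 bp (grey). The left panel shows how many of the leaf, rhizophore and seedling libraries list the locus, and the right panel the tissue with the next-highest level among loci listed outside the stem (286 and 25351 loci). Stem-preferential loci are more often listed in none of the others (24.1% against 1.27%), which the rule favours, and the next-highest tissue differs little.

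The members with the highest levels outside the stem show what the rule lets through. Among the 377 loci, the leaf level was highest on contig 067981, given above, and on contig 099941 (213 to 523), with 2649 FPKM in the stem, against 356 in the leaf, 15.7 in the rhizophore and 10.3 in the seedling. On contig 099941 the stem and leaf loci were both 110 bp long, with 63.5 fragments in the stem and 17.0 in the leaf. The rhizophore level was highest on contig 064735 (1 to 644), with 7538 FPKM in the stem from 28.0 fragments, against 4.04 in the leaf, 1320 in the rhizophore and 538 in the seedling, and then on contig 045364. The seedling level was highest on contigs 048034 and 071778, both given above. Thus 4 of these 6 levels belonged to loci shorter than 200 bp in the stem and in the tissue compared, those on contigs 067981, 099941, 064735 and 048034.

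Close to the limit, the 3 loci just inside were on contig 086039 (1310 to 3553), with 9.40 FPKM in the stem, against 1.59 in the leaf, 0.453 in the rhizophore and 0 in the seedling, on contig 065901 (274 to 1300), with 3.03 FPKM in the stem and 0 elsewhere, and on contig 047757 (2893 to 5088). The last had 317 FPKM in the stem, against 49.7 in the leaf, 77.6 in the rhizophore and 34.1 in the seedling. On contig 086039, 1.39 of the 1.59 FPKM in the leaf came from a locus with bounds of 0 and 174. The side of the limit on which contig 086039 falls is therefore uncertain. The 3 just outside were on contig 104572 (5 to 878), with 10.2 FPKM in the stem, against 1.81 in the leaf, 0 in the rhizophore and 0.847 in the seedling, on contig 061237 (32 to 1362), with 11.3 FPKM in the stem, against at most 2.07 elsewhere, and on contig 103603 (2989 to 5411). The last had 213 FPKM in the stem, against 13.1 in the leaf, 32.5 in the rhizophore and 52.8 in the seedling. The preferences on either side of the limit differ little, so the limit divides a continuous range.

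Length and position on the contig were not compared by the rule, apart from the minimum of 300 bp. The median merged length was 786 bp in the 377 loci and 1017 bp in the other 25678. The share of stem-preferential loci was 2.06% from 300 bp to under 600 bp, 1.19% from 600 bp, 1.32% from 1200 bp and 1.08% from 2400 bp. The shares were 1.31%, 0.815%, 1.19% and 0.942% when only those of the 377 with a leading stem locus of at least 300 bp were counted. The denominators were still all merged loci of each class. In this count the excess in the shortest class was smaller. Shares among merged loci with such a stem locus were not worked out by class. A start within 10 bp of the start of the contig, was found in 38.7% of the 377 and 39.3% of the others.

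The stem-preferential loci lay on 375 contigs. Most contigs carry a single merged locus, since 31210 merged loci of any length lay on 26929 contigs, so this number says little of scatter. Of the 377, 102 (27.1%) shared a contig with another merged locus of any length, as did 27.4% of the others. Among the contigs, 2 held more than 1 of the 377, a count with no like share at large to set it against. Contig 059646 carried a locus from 1 to 403 with 264 FPKM in the stem (bounds 253 to 274), against 10.8 in the leaf, 14.3 in the rhizophore and 3.97 in the seedling. The locus 68 bp further on, from 472 to 1793, had 1079 FPKM in the stem (1070 to 1089), against 75.4 in the leaf, 96.8 in the rhizophore and 186 in the seedling. The stem is far above the others in both, but the seedling is lowest in the first and next highest in the second. Contig 044124 carried a locus from 1 to 836 with 53.1 FPKM in the stem, against 11.5 in the leaf, 8.15 in the rhizophore and 4.27 in the seedling. Its second locus, from 1387 to 3957, had 603 FPKM in the stem, against 23.6 in the leaf, 60.8 in the rhizophore and 69.7 in the seedling. Here the order of the other 3 tissues is turned round between the neighbours. The leaf is next highest in the first and lowest in the second. Whether neighbours are parts of 1 gene is not given by the tables.

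Neighbours on the same contig mostly did not share the preference. With neighbours of at least 300 bp and a stem level of at least 10 FPKM, 61 of the 377 loci had 79 such pairings. The preference of the neighbour was below 0, so that another tissue was higher than the stem, in 57 pairings and below 1 in 71. Its median was -0.52, and that of all merged loci of at least 300 bp with at least 10 FPKM in the stem was -0.47. A preference of at least 1 was found in 10.1% of the pairings and in 7.32% of those loci at large. Of these pairings, 4 were those on contigs 059646 and 044124, counted from either side. The 3 neighbours nearest to equal levels of stem and highest other tissue were on contigs 075572 (63.0 FPKM in the stem, against 64.0 in the leaf, 56.5 in the rhizophore and 56.9 in the seedling), 079174 (316, against 8.57, 266 and 333) and 105001 (72.3, against 68.3, 67.0 and 57.5).

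**Figure D5:**
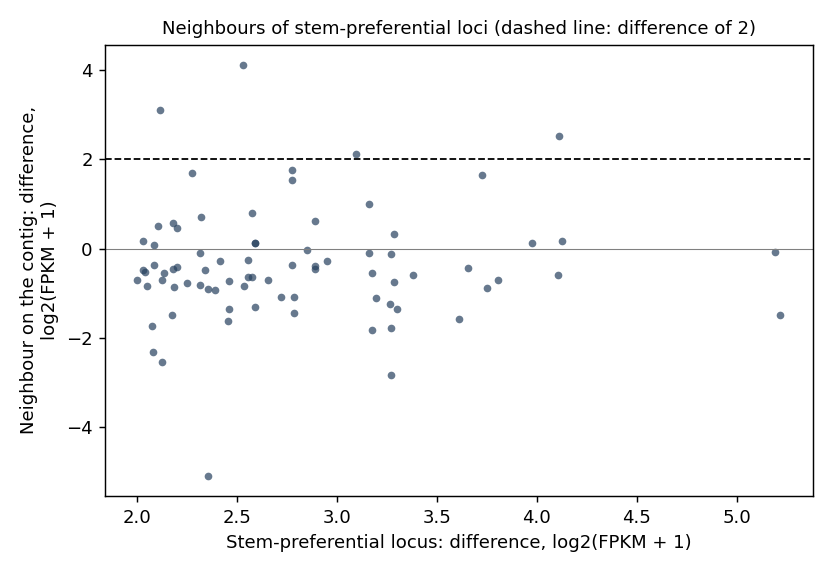
Each of the 79 points pairs a stem-preferential locus (horizontal axis, its difference in log2(FPKM + 1) between the stem and the highest other tissue) with a neighbour on the same contig (vertical axis, the same difference for the neighbour). The dashed line is the limit of 2 and the grey line is 0. The 4 points above the dashed line are the pairs on contigs 059646 and 044124 counted from both sides, and 57 points lie below 0.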

How the data were processed

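One RNA library per tissue was analysed. The authors trimmed the reads, aligned them with TopHat to contigs assembled with ABySS and ran Cufflinks on each library, and deposited FPKM per locus between a lower and an upper bound. These bounds were taken as a 95% interval. Starts in the tables count from 0 and were raised by 1. Loci were merged and summed as the report states, with Python 3.11.15, numpy 2.4.6 and pandas 2.3.3, and a locus not listed was set to 0. Fragments were (2 FPKM / (upper bound - FPKM)) squared. Library totals were the slope of fragments per FPKM on length, using a locus at or near the top of each 50 bp bin from 400 bp to 3000 bp. Folds are FPKM ratios without a pseudocount, and preferences are differences of log2(FPKM + 1), which understate the change of low loci. In simulated libraries of 10908 loci, 198 of 198 loci whose true value reached the limit, raised 8-fold, and 0 others were called. The simulation was built only on loci of at least 400 bp listed in every library, with 1 locus per library. It used nearly equal boundaries and Poisson error alone. It therefore cannot speak for short stem loci, unlike boundaries or differences between plants. No test was made, because each tissue has 1 library. The members and the rules for naming loci (highest level, preference, fragments, length or ratio of bounds, the limit, shared contigs, highest outside the stem, and neighbours) were chosen with earlier results of these data known. No genome sequence was used here. The alternatives tried were pseudocounts, scalings, minimum levels and lengths, other ways of merging, a larger preference, intervals that lie apart and a floor of 11 fragments.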

Additional observations from a re-analysis of the deposited data

How the results depend on the processing

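The number of stem-preferential loci was 377 as reported, and 768 with a pseudocount of 0.1, 210 with a pseudocount of 5, 244 with at most 1 locus per library, 602 from 150 bp, 223 from 600 bp, 132 at a preference of 3, and 148 with like boundaries. It stayed between 268 (floor of 11 fragments) and 486 (TPM) under the other alternatives. Of the 486, 291 were among the 377 (59.9% of the first and 77.2% of the second). TPM divides by sums that differ from their geometric mean by -0.60 (stem), -0.41 (leaf), 0.63 (rhizophore) and 0.38 (seedling) on the log2 scale. The number listed in the stem alone, 91 as reported, was 410 and 19 with the pseudocounts of 0.1 and 5, 34 in TPM, 35 from 10 FPKM in the stem, 58 with the floor, 251 from 150 bp, 28 from 600 bp and 44 at a preference of 3. The number next highest in the leaf, 97 as reported, was 62 with a pseudocount of 5, 200 in TPM, 54 with 1 locus per library, 61 from 600 bp, 25 at a preference of 3, 61 with a leading stem locus of at least 300 bp and 20 with like boundaries. For the rhizophore, 117 as reported, it was 67 with 1 locus per library, 46 at a preference of 3 and 27 with like boundaries. For the seedling, 72 as reported, it was 43 with a pseudocount of 5, 40 with 1 locus per library, 44 from 600 bp, 17 at a preference of 3, 47 with a leading stem locus of at least 300 bp and 18 with like boundaries. The number that shared a contig with another, 4 as reported, was 29 and 2 with the pseudocounts of 0.1 and 5, 10 in TPM, 2 from 600 bp, 0 at a preference of 3, 0 with like boundaries and 2 when scaled over merged loci of at least 300 bp. The last 3 kinds of alternative, namely the leading stem locus, like boundaries and this scaling, were chosen after seeing the data.

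The named loci other than the neighbours had preferences close to the limit of 2 or above it. Their signs could hardly change under the alternatives run on them, and so say nothing of their stability. Signs changed only in 2 neighbours. That on contig 075572 (-0.02) was 0.15 in TPM and 0.16 with the highest FPKM per merged locus, and that on contig 079174 (-0.08) was 0.89 in TPM, 0.034 with median-of-ratios factors and 0.35 with the highest FPKM. No paired analysis was possible because tissues were not replicated, nor could a replicate be omitted.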

Other observations

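The following values were chosen after they were seen. In 12 of the 377 loci the lower bound of the stem did not lie above the upper bound of every other library. Relative to the level, the widest of these intervals were on contig 081329 (1230 to 2989), with 4.05 FPKM in the stem and bounds of 0 and 154, and on contig 053761 (2289 to 6195), with 13.6 FPKM in the stem and bounds of 0 and 43.1, against 1.44 FPKM in the rhizophore and no listing in the leaf and the seedling. Both have a stem locus of more than 1000 bp, so that a wide interval was not confined to the short loci.

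The stem-preferential locus with the most fragments was on contig 058158 (61 to 2943), with 1329 FPKM in the stem from 143330 fragments, against 162 in the leaf, 240 in the rhizophore and 210 in the seedling. The stem and rhizophore loci were 2684 bp and 2883 bp long, and those of the leaf and the seedling 911 bp and 831 bp.

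In 59 of the 98 loci with a leading stem locus shorter than 300 bp, and in 75 of the 279 others, the fragment number of that locus lay within 0.1 of a whole number.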
